A study of Mus musculus with 12 samples.

Results

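The genes described here code for enzymes that oxidise, conjugate or methylate small molecules, together with the enzymes that make and degrade retinoic acid. They were chosen by name as the cytochrome P450 (Cyp), flavin monooxygenase (Fmo), aldehyde dehydrogenase (Aldh), glutathione S-transferase (Gst), UDP-glucuronosyltransferase (Ugt), sulfotransferase (Sult) and aldehyde oxidase (Aox) families plus the methyltransferase gene Inmt. Of 25655 genes in the deposited table, 200 carried such a name, and 75 of these reached 1 CPM (a count scaled to library size) or more in at least 4 of the 12 libraries. The 75 kept members were 24 of 101 Cyp, 4 of 7 Fmo, 19 of 21 Aldh, 18 of 23 Gst, 5 of 22 Ugt, 2 of 21 Sult and 2 of 4 Aox genes, and Inmt. Poly(A) RNA of the synovial membrane with its fat pad was sequenced from SKG/Jcl mice, whose mutated Zap70, a kinase of T cells, makes them a model in which mannan, a yeast cell wall sugar, sets off arthritis. Sedentary mice received PBS, Mannan-only mice received 20 mg of mannan, and AREx mice received 20 mg of mannan together with low-intensity treadmill running. Each group had 4 libraries, and all 3 groups carried the SKG background, so no wild-type joint is part of the comparison. The age and sex of the mice, and whether a library held 1 mouse or several, are not stated in the labels, so p-values measure the spread between these libraries. The study asked what low-intensity exercise does to established arthritis.

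P450 and flavin monooxygenase enzymes add oxygen to lipids, drugs and solvents, and transferases then attach glutathione, glucuronic acid or sulfate so that the product can leave the cell. These families are best known from the liver, but fat and the fibroblasts of many tissues use them too. Retinoic acid is made from retinol by way of retinaldehyde, the last step being carried out by the Aldh1a enzymes, and is broken down by Cyp26 enzymes. The balance between these steps sets how much retinoic acid reaches its nuclear receptors.

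Total counts ran from 11803882 to 17650156 per library, so 3 counts, the limit that a count of 0 allows, correspond to between 0.170 and 0.254 CPM. Markers of fat and lining were detected in all 12 libraries. The adipocyte hormone gene Adipoq stood at 1148 to 2021 CPM in Sedentary, 69.8 to 162 CPM in Mannan-only and 83.1 to 266 CPM in AREx, and the lining gene Prg4 at 8625 to 11536 CPM in Mannan-only and 6356 to 12656 CPM in AREx. Sedentary replicate 2 stood apart in lining genes, with Prg4 at 19003 CPM against 209 to 1898 in the other Sedentary libraries. AREx replicates 1 and 4 stood apart in gene length. Relative to the Mannan-only mean of log2 CPM, the fifth of tested genes that was shortest had a median log2 difference of 0.82 in replicate 1 and 0.54 in replicate 4, against 0.00 and 0.03 in replicates 2 and 3. AREx replicates 2 and 4 stood apart in skeletal muscle markers, with sums of 2931 and 2710.1 CPM against at most 300.4 in the other libraries. Where leaving out these libraries changed a call or direction of a member named by the rule, that is given with the member or among the alternatives at the end.

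Promoter sequences are shown for 4 genes that mark the extremes of the set: Inmt, with the largest fall in Mannan-only, Aldh1a1 and Aldh1a2, which make the same product and moved in opposite directions, and Cyp4f18, with the largest rise. They are the 250 bases before the annotated start from RefSeq windows on GRCm38.p6, a different build from the GRCm39 of the deposited values, written 5′ to 3′ in gene orientation. For Aldh1a1, which has more than one annotated start, the window farthest downstream is shown. Capitals mark the only motif matches found in them.
Inmt (chr6:55174991-55175240, - strand): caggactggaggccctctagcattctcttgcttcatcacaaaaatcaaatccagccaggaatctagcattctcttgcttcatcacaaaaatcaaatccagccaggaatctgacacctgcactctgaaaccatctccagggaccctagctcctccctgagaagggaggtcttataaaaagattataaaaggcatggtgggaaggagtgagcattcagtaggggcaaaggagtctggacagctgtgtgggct
Aldh1a1 (chr19:20601718-20601967, + strand): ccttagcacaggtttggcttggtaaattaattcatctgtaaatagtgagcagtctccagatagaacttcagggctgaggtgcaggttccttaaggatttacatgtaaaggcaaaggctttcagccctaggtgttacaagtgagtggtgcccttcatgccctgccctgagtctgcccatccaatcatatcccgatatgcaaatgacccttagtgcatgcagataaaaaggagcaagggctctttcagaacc
Aldh1a2 (chr9:71215539-71215788, + strand): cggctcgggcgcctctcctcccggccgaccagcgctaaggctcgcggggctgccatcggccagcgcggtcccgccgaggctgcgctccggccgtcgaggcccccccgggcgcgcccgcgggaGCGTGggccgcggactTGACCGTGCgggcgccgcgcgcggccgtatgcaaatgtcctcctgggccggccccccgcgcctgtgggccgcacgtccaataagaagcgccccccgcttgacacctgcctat
Cyp4f18 (chr8:72009627-72009876, - strand): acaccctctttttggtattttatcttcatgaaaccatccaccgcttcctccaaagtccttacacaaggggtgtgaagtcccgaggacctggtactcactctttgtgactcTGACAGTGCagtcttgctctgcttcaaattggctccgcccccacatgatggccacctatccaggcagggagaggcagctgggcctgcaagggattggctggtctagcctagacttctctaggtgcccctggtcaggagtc
In the Aldh1a2 promoter the first run of capitals is the core of the xenobiotic response element bound by the aryl hydrocarbon receptor (GCGTG), which starts 128 bases before the start site. The second run, 112 bases before it, is the core of the antioxidant response element (TGACNNNGC). The same antioxidant core starts 140 bases before the Cyp4f18 start. Windows of 300 bases were matched for 60 of the 75 members and searched on both strands. The xenobiotic core was in 22 of the 60, or 36.7%, against 35.2% of 27025 genes with a window, and the antioxidant core in 8, or 13.3%, against 14.0%. A D-box (TTANGTAA), the site of the PAR bZip clock output factors, was in the window of Sult1a1 alone, 1.67% of members against 2.72% of genes. An E-box (CACGTG) was in 4 windows, 6.67% against 8.09%. The retinoid receptor repeats, 2 copies of AGGTCA in the same direction with 1 or 5 bases between them, were in 0 of the 60 windows, against 0.0481% and 0.0111% of genes. These matches describe the letters of the windows only.

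Most members were lower after mannan, and a smaller group was higher. Of the 75, 53 fell and 13 rose in Mannan-only against Sedentary, with 9 not called. Of all 14278 genes tested, 25.2% were called lower and 26.3% higher. Calls are adjusted p-values under 0.05 from edgeR's quasi-likelihood test with Benjamini-Hochberg adjustment over all genes tested, and the same test stands behind each adjusted p below. The median log2 fold change of the members was -1.37, against 0.01 for all genes. A member kept mainly through the libraries where it was high leans toward a difference by that choice. The count was therefore also taken over the 63 members at the level in every library. Of these, 45 fell, 11 rose and 7 were not called. AREx against Sedentary shares the Sedentary libraries. There 49 members fell and 13 rose, where 23.7% of all genes were called lower and 27% higher. The median was -1.26 against 0.05. Of the 63 members at the level in every library, 41 fell and 10 rose in AREx.

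**Figure D1:**
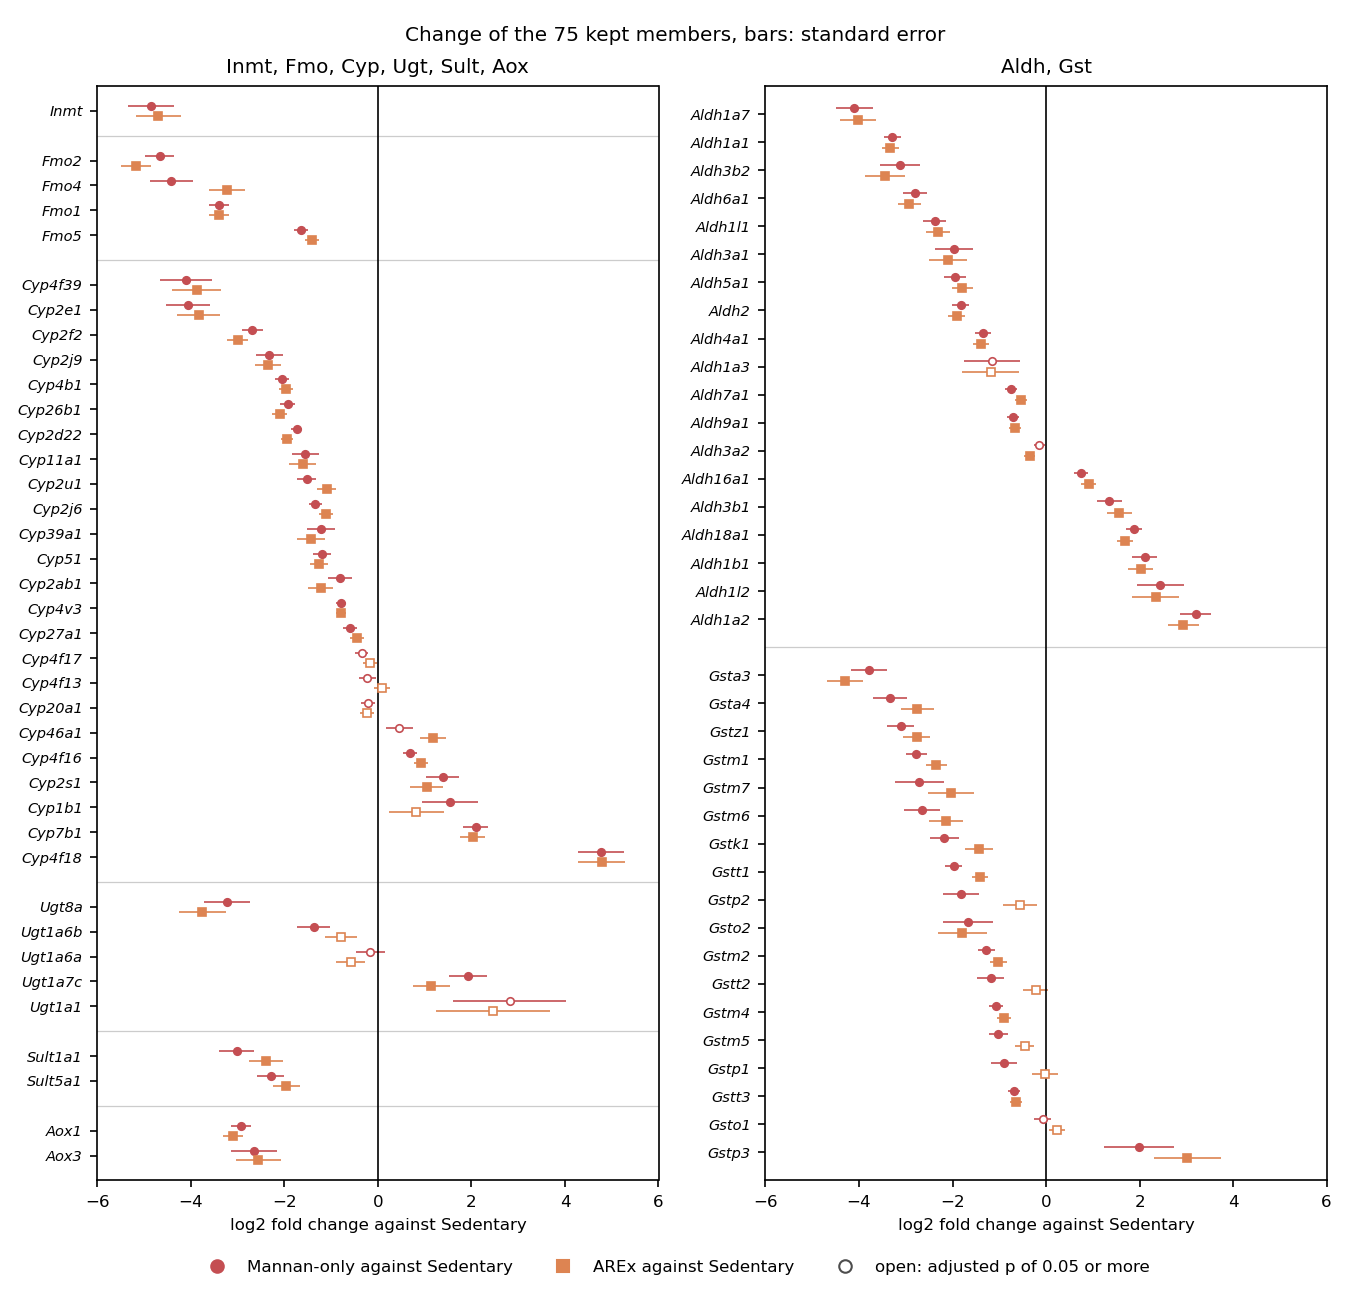
Log2 fold change of each of the 75 members against Sedentary, by family, with bars of 1 SE from the fit over 4 libraries per group. Circles are Mannan-only and squares AREx, and open symbols have an adjusted p of 0.05 or more. Most symbols of either group lie left of 0, from -5.17 for Fmo2 in AREx to 4.78 for Cyp4f18 in AREx.

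Inmt, which methylates indole amines such as tryptamine, and Fmo2, one of the flavin monooxygenases, which oxygenate nitrogen and sulfur in amines and thioethers, had the largest fitted falls of the 75 members in Mannan-only and in AREx against Sedentary. Inmt stood at 145, 211, 189 and 121 CPM in the 4 Sedentary libraries, at 8.42, 2.04, 3.83 and 8.82 in Mannan-only and at 7.80, 5.30, 2.38 and 10.2 in AREx. No library of either mannan group came near the lowest Sedentary value. Inmt fell by 4.85 (SE 0.50, adjusted p = 7.43e-06) on the log2 scale in Mannan-only and fell by 4.69 (SE 0.49, adjusted p = 9.53e-06) in AREx. Fmo2 was at 162, 212, 193 and 155 CPM in Sedentary, 7.66, 5.72, 5.63 and 9.49 in Mannan-only and 1.90, 6.41, 5.34 and 6.05 in AREx. Neither mannan group overlapped Sedentary, the mannan groups overlapped each other, and AREx replicate 1 was the lowest of the 12 libraries. Fmo2 fell by 4.66 (SE 0.31, adjusted p = 5.45e-07) in Mannan-only and fell by 5.17 (SE 0.32, adjusted p = 4.39e-07) in AREx.

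All 4 kept Fmo members fell in both comparisons. Fmo1 went from 189.8 ± 21.6 CPM (mean ± SD, n = 4, as throughout) in Sedentary to 18.1 ± 2.62 in Mannan-only, and fell by 3.39 (SE 0.21, adjusted p = 3.83e-07). Named to complete the family, Fmo5, an enzyme that inserts oxygen next to ketones, fell by 1.65 (SE 0.15, adjusted p = 3.41e-06), and the low-level Fmo4, which reached the expression level in Sedentary alone, stood at 2.31 and 0.101 CPM. Fmo4, Fmo1 and Fmo2 lie next to one another on chromosome 1 of GRCm39 (162620757 to 162641541, 162657130 to 162694179 and 162701886 to 162726295), all on the minus strand. The family's summed level was 399 ± 20.7 CPM in Sedentary, 33.9 ± 5.50 in Mannan-only and 33.2 ± 6.73 in AREx.

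Among the P450 enzymes of foreign compounds and fatty acids, the abundant members Cyp2e1, Cyp2f2 and Cyp4v3 fell, whereas Cyp1b1, described further on, was called higher in Mannan-only. Cyp2e1, which oxidises ethanol and small solvents, was the highest of all members per transcript length in Sedentary, at 1121 ± 443 TPM (transcripts scaled by length and library size). It stood at 649.7, 589, 891 and 1473 CPM in Sedentary and 70.4, 35.1, 37.2 and 72.6 in Mannan-only, without overlap, and fell by 4.06 (SE 0.46, adjusted p = 1.60e-05). In AREx its 4 libraries held 39.0, 47.1, 45.4 and 121 CPM, replicate 4 being highest and far under every Sedentary library. Cyp2f2, known for naphthalene oxidation in mouse lung, fell by 2.68 (SE 0.23, adjusted p = 1.96e-06), with 387 ± 70.0 CPM in Sedentary and 60.4 ± 10.2 in Mannan-only. Cyp4v3, the mouse counterpart of a human fatty acid hydroxylase, fell by 0.80 (SE 0.10, adjusted p = 4.00e-05). Of the other members, Cyp4b1 went from 40.5 to 9.82 CPM and the arachidonic acid epoxygenase genes Cyp2j6 and Cyp2j9 from 35.8 to 14.2 and from 14.6 to 2.91 CPM, all 3 called lower. In all, 15 of the 24 Cyp members fell and 5 rose after mannan alone, where 25.2% of all genes fell and 26.3% rose. Of the 21 at the level in every library, 13 fell and 5 rose. In AREx against Sedentary 15 of the 24 fell and 5 rose, where 23.7% of all genes fell and 27% rose. There Cyp46a1 was among the rises in place of Cyp1b1. Of the 21, 13 fell and 4 rose in AREx.

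Cyp4f18, which in mouse neutrophils oxidises the attractant leukotriene B4 near its tail end, had the largest rise of the set. It was at 3.18, 2.17, 2.89 and 2.34 CPM in Sedentary, 79.5, 94.1, 43.6 and 72.8 in Mannan-only and 139, 83.8, 45.4 and 26.1 in AREx. Every mannan library was far above every Sedentary library, with a wide spread within AREx. Cyp4f18 rose by 4.77 (SE 0.50, adjusted p = 8.32e-06) in Mannan-only and rose by 4.78 (SE 0.50, adjusted p = 9.32e-06) in AREx. The 10 neutrophil markers all rose too, where 26.3% of all genes rose in Mannan-only and 27% in AREx. Their summed level by replicate was 6210.1, 5858, 2999 and 4742 CPM in Mannan-only and 7168, 4539, 2849.5 and 1254 CPM in AREx. In Sedentary it was 16.4 to 113 CPM. AREx replicate 1 was highest and AREx replicate 4 lowest of the 8 mannan libraries in both measures. The part of these cells in the Cyp4f18 result was not tested. Of the other Cyp4f genes, Cyp4f16 went from 17.4 to 28.1 CPM and was called higher, Cyp4f13 (log2 -0.23) and Cyp4f17 (log2 -0.35) were not called, and Cyp4f39, which reached the expression level in Sedentary alone, was called lower (log2 -4.10), at 1.86 and 0.0994 CPM.

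The retinoic acid enzymes changed places. Aldh1a1, the main retinaldehyde dehydrogenase of the Sedentary libraries, stood at 145, 141, 139 and 151 CPM there, at 13.5, 13.3, 13.0 and 19.1 in Mannan-only and at 13.9, 15.3, 10.2 and 17.9 in AREx. The Sedentary values lay close together and the highest mannan library held 19.1 CPM. Aldh1a1 fell by 3.29 (SE 0.18, adjusted p = 2.56e-07) in Mannan-only and fell by 3.33 (SE 0.18, adjusted p = 2.92e-07) in AREx. Aldh1a2, which carries out the same step and is the form of the early embryo, was at 13.9, 27.2, 15.5 and 11.2 CPM in Sedentary, 158, 182, 89.1 and 194 in Mannan-only and 114, 191, 118 and 94.2 in AREx. The lowest mannan library was above the highest Sedentary one. Aldh1a2 rose by 3.20 (SE 0.34, adjusted p = 9.19e-06) and rose by 2.93 (SE 0.34, adjusted p = 1.79e-05) in these comparisons. Per length, Aldh1a2 moved from rank 48 of the 75 members in Sedentary (17.7 ± 8.24 TPM) to rank 2 in Mannan-only (184 ± 52.6 TPM), while Aldh1a1 went from rank 13 to rank 35.

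Aldh1a7, a mouse paralog that lies next to Aldh1a1 on chromosome 19 (20670317 to 20704926, minus strand) and whose reads could be shared with it, fell by 4.10 (SE 0.40, adjusted p = 4.80e-06), with 70.6 ± 23.5 CPM in Sedentary and 4.10 ± 1.46 in Mannan-only. The remaining retinaldehyde dehydrogenase gene, Aldh1a3, was not called. It was at 18.8, 97.9, 19.8 and 9.89 CPM in Sedentary and 13.2, 15.04, 20.0 and 17.3 in Mannan-only, so that replicate 2 alone set the Sedentary mean apart (log2 -1.16, SE 0.61, adjusted p = 0.129). Without that library the log2 fold change was 0.0035. Cyp26b1, which degrades retinoic acid, was at 50.7, 69.8, 62.8 and 66.2 CPM in Sedentary, 16.8, 15.4, 13.1 and 20.4 in Mannan-only and 13.3, 13.1, 17.6 and 14.2 in AREx. Neither mannan group overlapped Sedentary, though they overlapped each other, and Cyp26b1 fell by 1.92 (SE 0.16, adjusted p = 1.79e-06) in Mannan-only and fell by 2.10 (SE 0.16, adjusted p = 1.27e-06) in AREx. Of the other Cyp26 genes, Cyp26a1 stayed under the level with 27 counts in all Sedentary libraries together, 67 in Mannan-only and 32 in AREx.

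**Figure D2:**
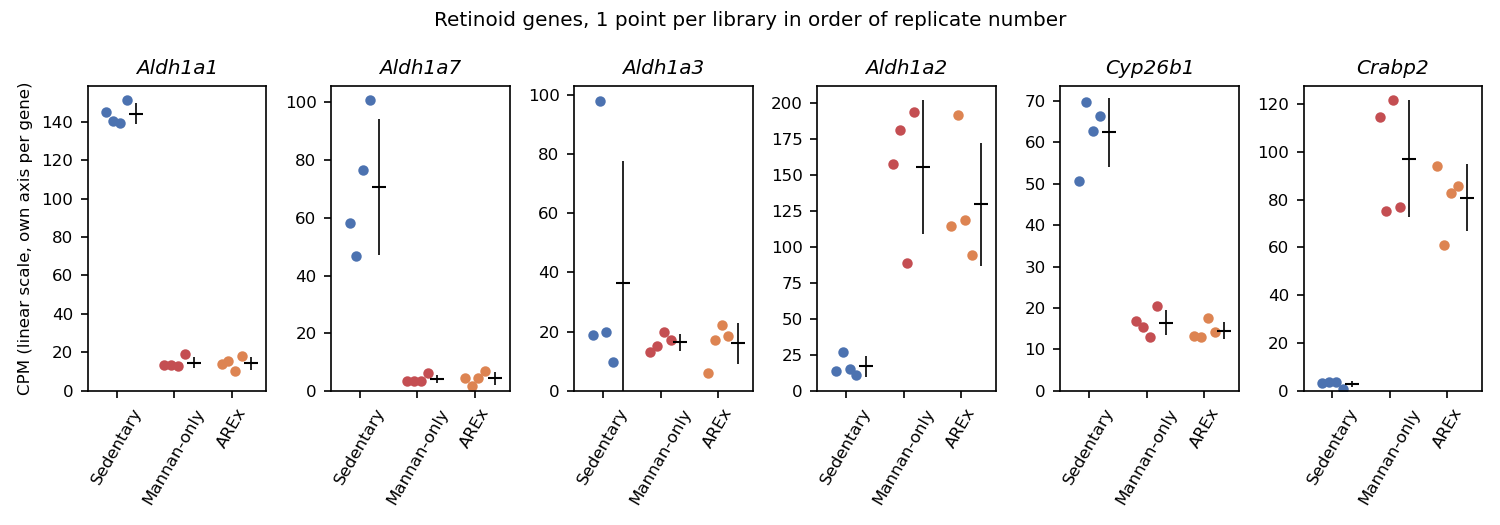
CPM of 6 retinoid genes in each of the 12 libraries, each gene on its own linear axis from 0, with the mean and SD of each group of 4 in black. Aldh1a1, Aldh1a7 and Cyp26b1 were high in Sedentary, Aldh1a2 and the retinoic acid carrier gene Crabp2 in the mannan groups, and Aldh1a3 in Sedentary replicate 2 alone.

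Outside the enzyme families, 33 of 38 listed genes of retinoid transport, storage and reception were tested. In Mannan-only against Sedentary 16 fell and 6 rose, where 25.2% of all genes fell and 26.3% rose. Their median log2 was -0.52, against 0.01 for all genes. Crabp2, which carries retinoic acid to the nucleus, was at 3.18, 3.69, 3.63 and 0.857 CPM in Sedentary and 115, 75.3, 121 and 76.9 in Mannan-only, and rose by 5.08 (SE 0.36, adjusted p = 6.89e-07). The serum retinol carrier gene Rbp4, also made by fat, fell by 3.56 (SE 0.32, adjusted p = 3.02e-06), with 283 ± 101 CPM in Sedentary and 24.0 ± 4.68 in Mannan-only. Adh1, which oxidises retinol, fell by 3.38 (SE 0.25, adjusted p = 9.56e-07), and the retinol saturase gene Retsat fell by 2.28 (SE 0.17, adjusted p = 8.88e-07). On the rising side, the receptor gene Rara rose by 1.68 (SE 0.21, adjusted p = 3.47e-05), and the dehydrogenase and reductase genes Dhrs9 and Rdh12 rose from 8.34 to 37.0 and from 1.69 to 11.7 CPM. Rdh10, a retinol dehydrogenase, was called lower at a smaller size (-0.45, SE 0.11, adjusted p = 0.00419), and Dhrs3, which turns retinaldehyde back to retinol, was not called (-0.19, SE 0.21, adjusted p = 0.473). In AREx against Sedentary 15 of the 33 fell and 6 rose, where 23.7% of all genes fell and 27% rose.

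Cyp1b1, which oxidises oestrogens, retinol and polycyclic hydrocarbons, rose after mannan alone by a call near the threshold. Its Sedentary libraries held 39.4, 314, 69.6 and 34.4 CPM, those of Mannan-only 317, 371, 263 and 382 and those of AREx 115, 262, 235 and 197. Replicate 2 of Sedentary was within the Mannan-only range, and the other Sedentary libraries held at most 69.6 CPM. Cyp1b1 rose by 1.54 (SE 0.60, adjusted p = 0.0469) in Mannan-only, whereas AREx against Sedentary was not called (log2 0.82, SE 0.59, adjusted p = 0.266). The call in Mannan-only was lost in 13 of 22 alternatives. Without Sedentary replicate 2 the log2 fold change was 2.79 in Mannan-only, and AREx against Sedentary was then called as well, at 2.07 (adjusted p = 0.000306). Beside it, the summed level of 8 lining markers by replicate was 1073, 20913, 2286 and 407 CPM in Sedentary, and 9006 to 11996 in Mannan-only. Prg4 made up most of that sum in Sedentary replicate 2 and in every Mannan-only library. Of the 8 markers, 0 were called higher and 1 was called lower in Mannan-only, with a median log2 of -0.46. Their part in the Cyp1b1 values was not tested.

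Besides Aldh1a1 and Aldh1a2, 2 further pairs of aldehyde dehydrogenases with related substrates moved apart. Aldh1l1 and Aldh1l2 both release carbon dioxide from 10-formyltetrahydrofolate, the first in the cytosol and the second in mitochondria. Aldh1l1, named to complete the pair, stood at 115, 82.7, 121 and 187 CPM in Sedentary and 26.2, 22.6, 21.5 and 26.5 in Mannan-only, and fell by 2.38 (SE 0.26, adjusted p = 1.01e-05). Aldh1l2 went the other way, from 2.48, 4.49, 3.93 and 2.57 CPM to 23.5, 13.6, 20.3 and 15.9, and rose by 2.44 (SE 0.51, adjusted p = 0.00147). Within AREx its 4 libraries ran 3.54, 24.5, 28.8 and 11.5 CPM, so that replicate 1 lay within the Sedentary range. Aldh4a1 breaks proline down and Aldh18a1 makes it. Aldh4a1, also named to complete the pair, fell by 1.35 (SE 0.17, adjusted p = 2.81e-05), with 49.1 ± 13.3 CPM in Sedentary and 19.3 ± 1.16 in Mannan-only. Aldh18a1 was at 15.2, 16.1, 16.6 and 13.2 CPM in Sedentary and 57.6, 54.4, 58.8 and 53.7 in Mannan-only, and rose by 1.88 (SE 0.17, adjusted p = 3.59e-06). The log2 ratio of Aldh1a2 to Aldh1a1 counts averaged -3.17 ± 0.59 in Sedentary, 3.36 ± 0.43 in Mannan-only and 3.16 ± 0.57 in AREx, and for Aldh18a1 to Aldh4a1 the 3 means were -1.65 ± 0.49, 1.54 ± 0.11 and 1.37 ± 0.50. Each ratio sets a member called higher over a member called lower, so it restates the changes of the single genes.

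**Figure D3:**
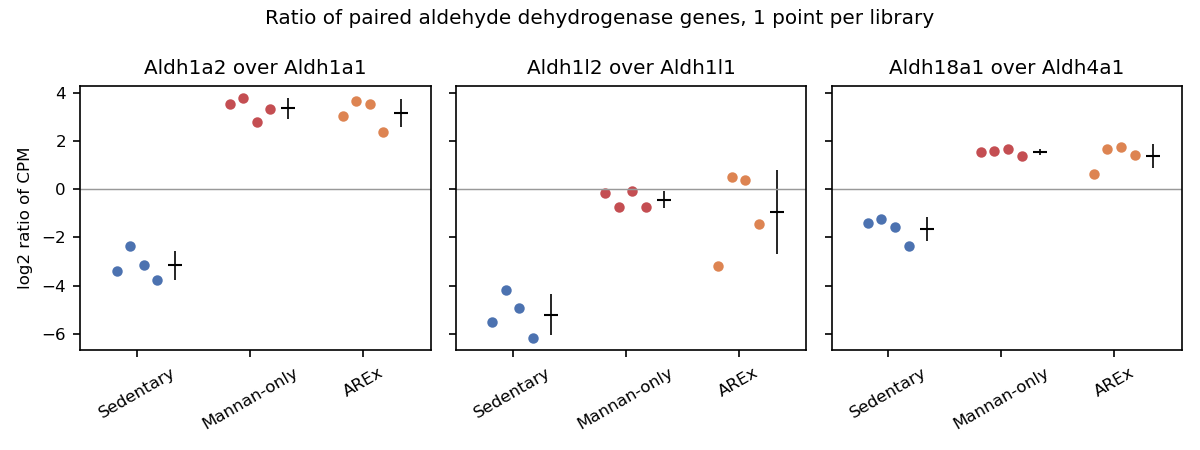
Log2 ratio of CPM within 3 pairs of aldehyde dehydrogenase genes in each of the 12 libraries, with the mean and SD of each group of 4 in black. Every mannan library lies above every Sedentary library in all 3 pairs, and the Aldh1l pair spreads widest in AREx, from -3.18 to 0.51.

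The other aldehyde dehydrogenases included the most abundant ones. Aldh2, the mitochondrial enzyme that clears acetaldehyde, fell by 1.82 (SE 0.18, adjusted p = 6.40e-06), with 656 ± 163 CPM in Sedentary and 186 ± 22.0 in Mannan-only. Aldh6a1, a mitochondrial enzyme of valine breakdown, fell by 2.80 (SE 0.25, adjusted p = 2.82e-06), with 427 ± 75.8 CPM in Sedentary and 61.2 ± 13.5 in Mannan-only. Both kept their Mannan-only libraries clear of the Sedentary range. The mitochondrial Aldh1b1 rose by 2.11 (SE 0.27, adjusted p = 4.24e-05), with 1.24 ± 0.528 CPM in Sedentary and 5.34 ± 0.349 in Mannan-only, and Aldh3b1, which acts on aldehydes from lipids, rose by 1.36 (SE 0.26, adjusted p = 9.39e-04). Aldh3a2, the fatty aldehyde dehydrogenase, was not called in Mannan-only (log2 -0.14, SE 0.11, adjusted p = 0.309) and was called lower in AREx (-0.35, SE 0.11, adjusted p = 0.0213), a call lost in 3 of 23 alternatives and at -0.18 without AREx replicates 1 and 4. In Mannan-only it was called lower in 2 of 23, at -0.19 with the length trend removed (adjusted p = 0.0213) and -0.14 without AREx replicates 1 and 4 (adjusted p = 0.0464). Among all 19 Aldh members 11 fell and 6 rose in Mannan-only, where 25.2% of all genes fell and 26.3% rose. In AREx 12 fell and 6 rose, where 23.7% of all genes fell and 27% rose.

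Sterol and steroid P450 genes moved in both directions. Cyp51, which removes a methyl group from lanosterol on the way to cholesterol, fell by 1.19 (SE 0.19, adjusted p = 2.33e-04), with 60.5 ± 12.1 CPM in Sedentary and 26.5 ± 5.38 in Mannan-only. Cyp27a1, which adds a hydroxyl group to the sterol side chain, fell by 0.59 (SE 0.15, adjusted p = 0.00436). Cyp7b1, which hydroxylates oxysterols, was at 4.22, 4.13, 2.22 and 4.36 CPM in Sedentary and 19.5, 12.9, 19.8 and 11.5 in Mannan-only, without overlap, and rose by 2.09 (SE 0.27, adjusted p = 4.01e-05). Ch25h, the enzyme that makes the 25-hydroxycholesterol used by Cyp7b1, rose by 2.30 (SE 0.49, adjusted p = 0.00168), and Gpr183, the receptor for the resulting oxysterol, rose by 0.79 (SE 0.20, adjusted p = 0.00564). To complete the group, the oxysterol hydroxylase gene Cyp39a1 and the side chain cleavage gene Cyp11a1 were called lower (log2 -1.21 and -1.55), and the cholesterol hydroxylase gene Cyp46a1, at 1.34 CPM in Sedentary, was called higher in AREx alone (1.18, SE 0.28, adjusted p = 0.00410). The difference between the mannan groups in Cyp46a1 was not called. Of 15 tested sterol and steroid partner genes, 7 fell and 4 rose in Mannan-only, where 25.2% of all genes fell and 26.3% rose. Among them, the vitamin D receptor gene Vdr rose by 3.02 (SE 0.32, adjusted p = 8.56e-06).

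Glutathione S-transferases fell almost throughout in Mannan-only, where 16 of 18 were called lower, Gstp3 was called higher and Gsto1 was not called. Gstp3 reached the expression level in mannan libraries alone, so its direction followed from the choice of members. Of the 14 Gst members at the level in every library, 13 were called lower, 0 higher and 1 was not called. Of all genes, 25.2% were called lower and 26.3% higher. In AREx against Sedentary 12 of the 18 were called lower, 1 higher and 5 not. Of the 14, 9 were called lower, 0 higher and 5 not in AREx, where 23.7% of all genes were called lower and 27% higher. Gsta4, which clears the lipid peroxidation product 4-hydroxynonenal, was at 169.9, 147, 145 and 159 CPM in Sedentary, 13.4, 11.4, 17.4 and 19.0 in Mannan-only and 28.3, 13.3, 10.8 and 39.8 in AREx. The mannan groups overlapped each other but not Sedentary, and AREx replicates 1 and 4 were the highest mannan libraries. Gsta4 fell by 3.34 (SE 0.37, adjusted p = 1.16e-05) in Mannan-only and fell by 2.75 (SE 0.35, adjusted p = 4.35e-05) in AREx. Gsta3 fell by 3.79 (SE 0.38, adjusted p = 6.03e-06), with 64.6 ± 20.9 CPM in Sedentary and 4.68 ± 1.55 in Mannan-only. Gstz1, which isomerises a product of tyrosine breakdown, fell by 3.10 (SE 0.29, adjusted p = 3.59e-06), with 357 ± 107 CPM in Sedentary and 41.5 ± 8.57 in Mannan-only.

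The Gstm genes form a cluster on chromosome 3 between 107803137 and 107952210, and their near-identical sequences make each value uncertain. All 6 kept Gstm members were called lower in Mannan-only, from a log2 fold change of -2.77 for Gstm1 to -1.02 for Gstm5. Gstm6 reached the expression level in 4 Sedentary, 0 Mannan-only and 1 AREx library. It was kept through Sedentary, so its direction followed from the choice of members. Gstm1 went from 325 ± 27.6 to 47.5 ± 6.45 CPM and Gstm2 from 161 ± 20.5 to 66.1 ± 5.08 CPM. The 3 Gstt members, neighbours on chromosome 10, were also lower, and Gstt1 fell by 1.98 (SE 0.18, adjusted p = 3.73e-06) and Gstt2 fell by 1.19 (SE 0.28, adjusted p = 0.00369). Of the Gstp genes, which are close copies in a row on chromosome 19, Gstp1 was at 139, 134, 137 and 168 CPM in Sedentary and 85.1, 74.1, 74.5 and 78.4 in Mannan-only, a fall of smaller size (-0.89, SE 0.28, adjusted p = 0.0174). Gstp1 was thereby the highest member per length in Mannan-only, at 234 ± 11.7 TPM against 373 ± 22.1 TPM in Sedentary. The summed Gst level was 1579 ± 219 CPM in Sedentary, 398 ± 33.3 in Mannan-only and 573 ± 197 in AREx.

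Both kept sulfotransferases and both kept aldehyde oxidases fell. Sult1a1, which sulfates phenols, was at 205, 161, 183 and 245 CPM in Sedentary, 27.1, 19.9, 21.0 and 29.8 in Mannan-only and 60.3, 19.4, 18.8 and 52.6 in AREx. Replicates 1 and 4 again stood highest in AREx, below every Sedentary library. Sult1a1 fell by 3.02 (SE 0.37, adjusted p = 2.76e-05) in Mannan-only and fell by 2.40 (SE 0.36, adjusted p = 1.42e-04) in AREx, and Sult5a1 fell by 2.30 (SE 0.30, adjusted p = 4.35e-05) in Mannan-only. Aox1, a molybdenum enzyme that oxidises aldehydes and ring nitrogen compounds, was at 188, 155, 181 and 199.7 CPM in Sedentary and 24.5, 19.9, 26.0 and 25.0 in Mannan-only, and fell by 2.92 (SE 0.21, adjusted p = 8.16e-07). Its neighbour Aox3 fell by 2.65 (SE 0.49, adjusted p = 6.09e-04) from 5.85 ± 1.06 CPM. Aox3 reached the expression level in 4 Sedentary, 1 Mannan-only and 2 AREx libraries. It was thus kept through Sedentary, a choice that favours a fall.

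The Ugt members had 2 unrelated stories. Ugt8a, which makes the myelin lipid galactosylceramide, was at 52.0, 134, 32.3 and 41.2 CPM in Sedentary and 11.8, 3.35, 4.22 and 8.40 in Mannan-only, and fell by 3.22 (SE 0.49, adjusted p = 1.62e-04). Beside it, all 8 Schwann cell markers fell, where 25.2% of all genes fell. Their summed level by replicate was 3329.6, 7875, 2139 and 4035 CPM in Sedentary and 351 to 862 CPM in Mannan-only. Sedentary replicate 2 was the highest library and replicate 3 the lowest Sedentary library in both measures. The part of Schwann cells in the Ugt8a result was not tested.

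The Ugt1a genes of chromosome 1 have their own first exons and share the rest, so reads in the shared exons cannot be assigned to one gene with certainty. In Mannan-only, Ugt1a7c rose by 1.92 (SE 0.41, adjusted p = 0.00168), with 20.6 ± 3.88 CPM in Sedentary and 78.2 ± 11.9 in Mannan-only, Ugt1a6b was called lower (-1.37, SE 0.35, adjusted p = 0.00559) and Ugt1a6a was not called (-0.16, SE 0.31, adjusted p = 0.685). AREx replicate 1 departed from this pattern. It had 87.4 CPM (964 counts) for Ugt1a8, where the other 11 libraries had between 0 and 1.08 CPM, while its Ugt1a7c was 14.3 CPM and its Ugt1a6a 7.71 CPM. The sum over the 9 Ugt1a genes differed less: Sedentary libraries had 69.9 to 90.5 CPM, Mannan-only 97.7 to 131 and AREx 74.4 to 128, with AREx replicate 1 at 128 CPM. Ugt1a7c was also called higher in AREx (1.14, SE 0.40, adjusted p = 0.0310), a call that was lost in 9 of 23 alternatives, at 0.73 without AREx replicate 2, 0.86 without AREx replicates 2 and 4, and 1.76 (still called) without AREx replicates 1 and 4.

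**Figure D4:**
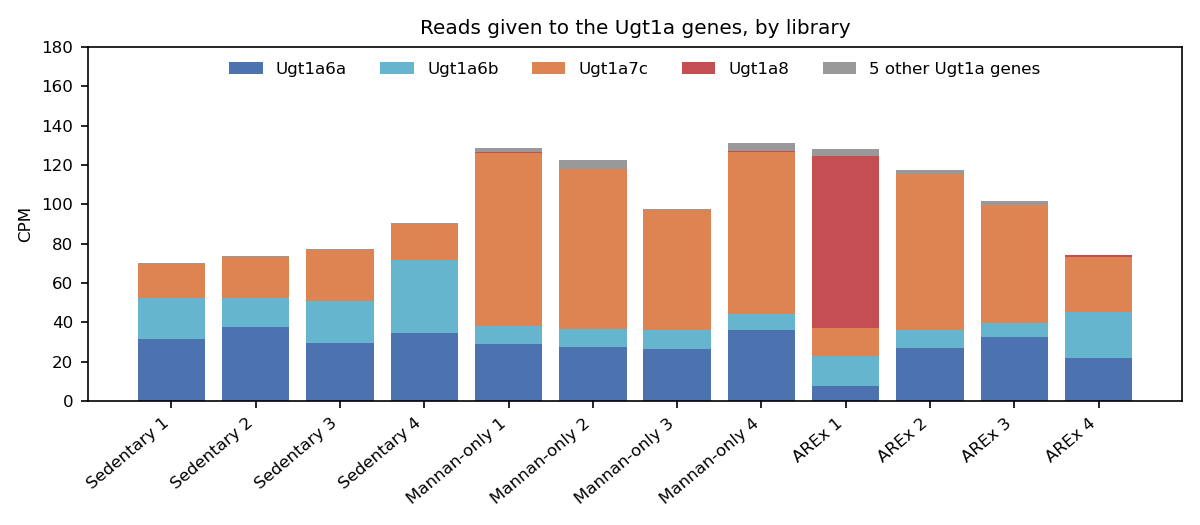
CPM given to the 9 Ugt1a genes in each of the 12 libraries, as bars stacked by gene from 0. In AREx replicate 1 the reads of the locus were given mainly to Ugt1a8 (87.4 CPM), and in the other mannan libraries mainly to Ugt1a7c, Ugt1a6a and Ugt1a6b.

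Partners of these enzymes outside the families were lower more often than higher in Mannan-only. Of 54 listed sensors, cofactor enzymes, transporters and other conjugating enzymes, 51 were tested. Of these, 31 fell and 7 rose (median log2 -0.63), where 25.2% of all genes fell and 26.3% rose. The carboxylesterase gene Ces1d fell by 4.22 (SE 0.47, adjusted p = 1.33e-05), the epoxide hydrolase gene Ephx2 fell by 3.43 (SE 0.39, adjusted p = 1.42e-05) and the membrane transferase gene Mgst1 fell by 2.16 (SE 0.23, adjusted p = 8.49e-06). Por, which passes electrons to the P450 enzymes of the endoplasmic reticulum, fell by 0.93 (SE 0.19, adjusted p = 0.00130). The aryl hydrocarbon receptor gene Ahr was not called (0.43, SE 0.17, adjusted p = 0.0518), while Nfe2l2, which codes for the factor that binds the antioxidant element, rose by 0.52 (SE 0.12, adjusted p = 0.00276). Among the genes it is known to act on, the cystine transporter gene Slc7a11 rose by 3.77 (SE 0.31, adjusted p = 1.67e-06) and Hmox1 rose by 1.17 (SE 0.22, adjusted p = 6.64e-04), whereas Nqo1 fell by 1.21 (SE 0.22, adjusted p = 5.68e-04) and Gclc fell by 0.85 (SE 0.16, adjusted p = 8.15e-04). In AREx against Sedentary 27 of the 51 fell and 8 rose, where 23.7% of all genes fell and 27% rose. Of 11 clock output and feedback factors 4 fell and 1 rose in Mannan-only, where 25.2% of all genes fell and 26.3% rose, and the D-box factor genes Hlf and Tef were among the falls (-3.14, SE 0.21, and -1.60, SE 0.17). Dbp, another D-box factor gene, was at 9.02, 4.58, 15.4 and 7.89 CPM in Mannan-only and 82.6, 49.1, 42.8 and 84.2 in AREx, and was the single gene called between these groups by edgeR on all libraries (log2 2.81, SE 0.34, adjusted p = 0.0331). The Dbp call was lost in 14 of 23 alternative fits, in which 0 genes were called. These were the fits with a replicate block, with only the compared groups and without either pair of AREx libraries, and each fit without a single library except Mannan-only replicate 3 or AREx replicate 3. Over all 23 the Dbp log2 fold change ran from 2.31 to 3.17 and its adjusted p from 5.76e-13 to 0.304, and DESeq2 called 137 genes and the fit without AREx replicate 3 called 27.

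No member was called between AREx and Mannan-only. By edgeR's test 0 of the 75 were called higher and 0 lower, where 0.007% of all genes were called higher and 0% lower, and 7 members, or 9.33%, had an unadjusted p under 0.05, against 19.9% of all genes. DESeq2 and limma-voom also called 0 members. The log2 fold changes ran from -0.78 to 1.26 with a median of 0.08, against -0.01 for all genes. In the authors' deposited table, by contrast, Gstp1, Gstp2 and Gstt2 had an adjusted p under 0.05 in this comparison (0.0305, 0.0111 and 0.0216). The 5 members with the smallest p were all glutathione S-transferases. Gstt2 was at 11.98, 13.2, 13.5 and 16.5 CPM in Mannan-only and 45.4, 15.9, 16.9 and 29.3 in AREx (log2 0.96, SE 0.28, adjusted p = 0.233), and Gstp2 at 5.69, 4.66, 5.94 and 7.30 and 22.8, 5.82, 7.79 and 20.4 CPM (1.26, SE 0.38, adjusted p = 0.233). Gstp1 was at 85.1, 74.1, 74.5 and 78.4 and 239, 86.3, 84.7 and 157 CPM (0.86, SE 0.28, adjusted p = 0.233). Gstt1 was at 40.9, 33.8, 42.58 and 41.8 CPM in Mannan-only and 73.9, 42.64, 48.2 and 70.6 in AREx. These did not overlap (log2 0.56, SE 0.18, adjusted p = 0.233). Gstm5 was at 17.4, 15.5, 21.5 and 15.8 and 32.0, 18.9, 18.8 and 34.2 CPM (0.57, SE 0.20, adjusted p = 0.233). In each of the 5 genes AREx replicates 1 and 4 were the highest of the 8 mannan libraries. Replicates 2 and 3 were within or near the Mannan-only range, and both were above it in Gstt1.

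The same split ran through the Gst family. Against the Mannan-only mean of log2 CPM, the median log2 difference of the 18 Gst members was 0.86 in AREx replicate 1 and 0.81 in replicate 4, but -0.06 and 0.09 in replicates 2 and 3. The other 57 members had medians of -0.02, -0.04, -0.05 and 0.16 in replicates 1 to 4. Gene length moved with it: 15 of the 18 Gst members were in the fifth of tested genes that was shortest by the length implied in the deposited values, and those genes were raised in the same libraries. With a length trend taken out of each library, Gstm5, Gstp1 and Gstp2 were called lower in AREx against Sedentary (log2 -0.73, -0.42 and -0.96). Without AREx replicates 1 and 4, these and Gstt2 were called lower (-0.92, -0.75, -1.61 and -0.93). By edgeR on all libraries with no length trend removed, none of the 4 was called in that comparison, with log2 values of -0.46, -0.03, -0.55 and -0.22. The part of gene length in the AREx values was not tested beyond these fits.

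**Figure D5:**
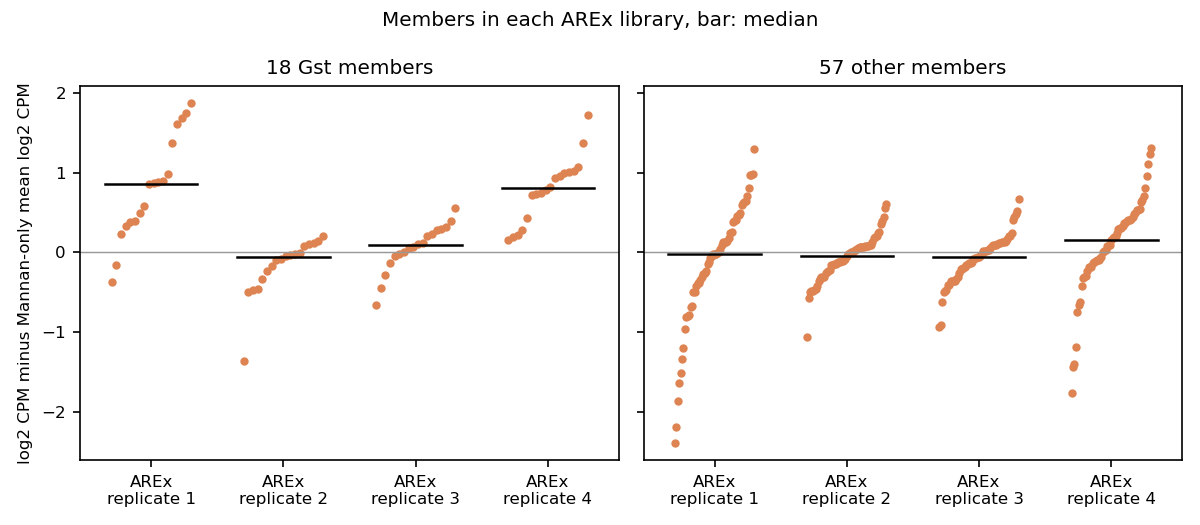
Log2 CPM of each member in each AREx library minus its mean log2 CPM over the 4 Mannan-only libraries, for the 18 Gst members (left) and the 57 others (right), with black bars at the medians. The Gst medians are 0.86, -0.06, 0.09 and 0.81 in replicates 1 to 4.

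Markers of several cell types moved with the members. All 14 adipocyte markers fell in both mannan groups (median log2 -3.78 in Mannan-only). Their summed level was 25434 to 47512 CPM in Sedentary against 1772 to 3673 in Mannan-only, while AREx had 2066 to 6763, and the thermogenic marker Cidea was at 0 in part of the libraries. Of 13 markers of fat and sublining fibroblasts 7 fell and 1 rose, with sums of 18602 to 26148 and 3932 to 5198 CPM. Of 10 macrophage markers 9 rose, all 7 tested T cell markers rose and all 8 mast cell markers fell. Among 8 endothelial markers 2 fell (median log2 0.18), where 25.2% of all genes fell and 26.3% rose. Of 5 tested skin markers, 1 rose and 2 fell. In bulk tissue, fewer cells of a type and less RNA per cell cannot be told apart, and the part of these cells in the falls was not tested. Of 10 hepatocyte markers, Alb and Serpina1a passed the count filter, the other 8 did not exceed 0.913 CPM in any library, and Alb was at 46.3, 40.2, 68.4 and 81.5 CPM in Sedentary and called lower in Mannan-only. Of 11 skeletal muscle markers 9 were called higher in AREx against Sedentary, where 27% of all genes were called higher. In Mannan-only 0 were called higher, where 26.3% of all genes were. Their sums were 226 to 2931 CPM in AREx and 8.14 to 300.4 in Mannan-only.

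Of the members by name that were left out, 58 had no read in any library and 67 had reads under the level. Apart from Ugt1a8, the highest single value among them was 1.99 CPM, for Gstt4.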

How the data were processed

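The authors deposited 1 table with raw counts per gene and length-scaled transcript abundance (TPM), per the file headers. RNA was isolated with a spin-column kit and libraries were made from poly(A) RNA with the NEBNext Ultra II kit, per the labels' protocols. The genome build was GRCm39, per the submitters' processing notes. The aligner, counter, annotation and strand setting were not given in the labels or headers, so reads of near-identical or overlapping genes may be divided, and 20 of the 75 members overlap another gene. Columns were matched to the 3 groups by the prefix in their headers. The authors' own log2 fold changes and adjusted p-values, also deposited, are used in 1 sentence. A further 24 per-sample columns of other units were not used.

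Counts were tested with edgeR 4.0.16 in R 4.3.3 (filterByExpr with a minimum count of 10, TMM scaling, robust quasi-likelihood F test on all 12 libraries with no block, Benjamini-Hochberg adjustment over 14278 genes, threshold 0.05). The SE is the absolute log2 fold change divided by the square root of F. CPM are on TMM-scaled library sizes, except in the choice of members, which used total counts. TPM serve for levels between genes and for relative gene length. Log2 differences of AREx libraries from the Mannan-only mean have 0.5 CPM added. The depth of 11803882 to 17650156 counts limits precision for genes near 1 CPM, and the limit of 3 counts covers counting error only. The procedure was tested on simulated counts.

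Members named with values are Fmo2 and Inmt, the most abundant of each family, the largest called changes per direction with at least 5 CPM, the 5 smallest p in AREx against Mannan-only, and the retinoid and sterol members by role. The members, gene lists and alternatives were chosen with earlier results of these data known. Alternatives were DESeq2 1.42.0, limma-voom (limma 3.58.1), other scalings and filters, a replicate block, removal of a gene-length trend, fits of 2 groups, and fits without single libraries or pairs of AREx libraries.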

Additional observations from a re-analysis of the deposited data

Results flagged for a closer look

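In 9 of 120 groups of 4 libraries, 1 library lay far from the other 3 by Dixon's criterion, which chance alone meets in about 1 of 20 groups. In Sedentary, replicate 2 held 97.9 CPM of Aldh1a3 (9.89 to 19.8 in the others) and 314 CPM of Cyp1b1 (34.4 to 69.6). Replicate 3 of Sedentary was low in Cyp51, at 42.6 CPM (65.1 to 69.1), and in Cyp7b1, at 2.22 CPM (4.13 to 4.36), and replicate 4 was high in Gstp1, at 168 CPM (134 to 139). In Mannan-only, replicate 4 was high in Aldh1a1, at 19.1 CPM (13.0 to 13.5), and in its neighbour Aldh1a7, at 6.30 CPM (3.27 to 3.44). In AREx, replicate 1 was high in Aldh3b1, at 82.2 CPM (33.9 to 41.8), and replicate 4 in Cyp2e1, at 121 CPM (39.0 to 47.1). Adipocyte markers were highest in the same library within each mannan group as Cyp2e1, with 6763 CPM in AREx replicate 4 and 3673 CPM in Mannan-only replicate 4.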

How the results depend on the processing

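The counts of members called in Mannan-only or AREx against Sedentary stayed within 1.5 times of those reported under every alternative that was run. With a minimum count of 50, 12 were called higher and 48 lower in Mannan-only, and 11 and 44 in AREx. A member that a fit filtered out was not counted as lost. Of the calls, 62 of 66 in Mannan-only and 58 of 62 in AREx held in every alternative that tested the member. The calls lost in some were those of Cyp1b1, Cyp2ab1, Gsto2 and Gstp3 in Mannan-only and of Aldh3a2, Cyp27a1 (-0.42 without AREx replicates 2 and 4), Cyp2s1 and Ugt1a7c in AREx. No member was called between AREx and Mannan-only in any alternative.

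Among the members named by the rule, direction turned for Aldh1a3 in Mannan-only, which ranged from -1.47 to 0.0035 when single libraries were left out, and for Gstp1 in AREx against Sedentary, which ranged from -0.40 to 0.16 and was 0.17 without AREx replicates 2 and 4. Of the remaining members, with the length trend removed or without a pair of AREx libraries, it also turned for Gsto1, to 0.12 in Mannan-only and -0.04 in AREx with the trend removed and -0.09 in AREx without replicates 1 and 4, and for Cyp4f13 in AREx, to -0.09 and -0.24. None of these values was called in that direction, and the cause was not tested. The call of Cyp1b1 in Mannan-only was lost without any one of Sedentary replicates 1, 3 or 4, at log2 fold changes of 1.25, 1.36 and 1.24.

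With a replicate block, 13 members were higher and 53 lower in Mannan-only, 12 higher and 50 lower in AREx against Sedentary, and 0 between the mannan groups, and among the members named by the rule the block removed the call of Ugt1a7c in AREx (adjusted p = 0.0573) and no other. The replicate numbers were not taken to pair the samples, since in no pair of groups were all correlations between libraries of the same number over 0.1. Of the 12, 7 were, and they ran from -0.05 to 0.20. A library correlated best with its own number in 11 of 24 cases. Genes near 1 CPM, such as Ugt1a1 and Gstp3, rest on few counts, and members with near-identical copies are limited also by how reads were assigned.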
